A study of Ovis aries with 6 samples.

Results

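The miR-148/152 family was described in the rumen of male sheep fetuses, with its members chosen by name: each listed miRNA called oar-miR-148 or oar-miR-152, with any letter or arm suffix. This rule found 2 of the 1253 listed miRNAs, oar-miR-148a and oar-miR-152. The series held 6 small RNA libraries of Hu sheep labelled wild type, 3 from fetuses of normally fed ewes (CON) and 3 from fetuses of feed-restricted ewes (UN, called TR in the sample titles). All ewes were labelled as 115 days of gestation, which by the study's methods is the day on which restriction began, with the tissue taken at the end of the restriction. Feed restriction of the ewe was the only labelled difference between the groups, and whole rumen tissue was used without separating cell types. The ewes carried more than 1 fetus each, and the sources used here do not say whether the 3 fetuses of a group had different mothers, so the p-values below measure the spread between these 6 libraries only. The series title names jejunum and ileum while each sample is labelled rumen, and the sample labels were followed.

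A miRNA guides a silencing complex to mRNAs that pair with its seed, bases 2 to 8 from the 5′ end, and so lowers their translation and stability. Members of the miR-148/152 family share their seed and are therefore predicted to bind largely the same mRNAs. In human cells the family is known for repressing the DNA methyltransferase DNMT1, which copies methylation marks after replication, and miR-148a is also known for its abundance in liver and milk.

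The sequences are shown because the family is defined by its seed. They come from the study's supplementary sequence table, which held all 1253 entries, and the capitals mark the 7 letters of the miR-148a seed.
oar-miR-148a: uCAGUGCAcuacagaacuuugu
oar-miR-152: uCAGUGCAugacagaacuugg
novel_miR_712: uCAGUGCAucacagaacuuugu
novel_miR_47: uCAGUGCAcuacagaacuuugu
novel_miR_412: CAGUGCAauguuaaaagggc
Of all entries, 4 had this seed: both members, novel_miR_712 and novel_miR_47. The rule on names does not cover the last pair, which the study listed among its own predictions. Their sequences were not compared here with miRNAs named in other species. Counted from 1 at the 5′ end without gaps, oar-miR-152 differed from oar-miR-148a by C9U, U10G and U20G, with 18 of 21 compared bases identical. novel_miR_712 differed from oar-miR-148a by C9U and U10C, with 20 of 22 bases identical. Both therefore departed from oar-miR-148a first at base 9, just after the seed. novel_miR_47 had the whole sequence of oar-miR-148a. The same 7 letters stood at another position in 8 further entries, at bases 1 to 7 in novel_miR_412 and novel_miR_738, at bases 5 to 11 in novel_miR_188 and at bases 12 to 18 in the other 5, which include oar-miR-17-5p, oar-miR-106a and oar-miR-106b. The seeds of these 8 are different ones.

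Each miRNA hairpin can release a strand from either arm, and a strand of the opposite arm pairs with the member over most of its length. Of all 1253 entries, novel_miR_71 paired most strongly with oar-miR-152 in RNAduplex, with a computed energy of -17.8 kcal/mol over 15 base pairs. It also paired most strongly with novel_miR_712, at -21.0 kcal/mol over 16 base pairs. Its capitals below mark bases 2 to 8.
novel_miR_71: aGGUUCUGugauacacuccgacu
For oar-miR-148a the strongest partner was another entry, novel_miR_55, also at -17.8 kcal/mol, so an energy of this size was not particular to novel_miR_71. With oar-miR-152, novel_miR_55 came after novel_miR_71, at -16.2 kcal/mol. The hairpin from which novel_miR_71 comes was not analysed here. In the RefSeq annotation of the sheep assembly ARS-UI_Ramb_v3.0, MIR152 lies inside COPZ2, a coat protein gene of vesicle transport, between NFE2L1 and CDK5RAP3. No annotated gene overlaps MIR148A in the same assembly. The build used for the deposited values is named only as version 3.0 of the sheep genome, so no coordinates are given.

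Values are given in RPM, the reads of a miRNA per 1000000 reads of all listed miRNAs, and the whole reads behind them were recovered. The libraries held 18584326 to 35555822 assigned reads, so that 1 read equalled 0.0281 to 0.0538 RPM. Reads copied by PCR were not told apart, so counting errors below cover sampling of reads only. Among miRNAs known from particular tissues, oar-miR-143 of smooth muscle took 29.5% to 50.03% of a library. The epithelial oar-miR-200a, oar-miR-200b and oar-miR-200c averaged 6786, 5934 and 1618 RPM. Of the striated muscle, vessel and blood cell miRNAs, oar-miR-133, oar-miR-221 and oar-miR-150 averaged 234, 122 and 4.37 RPM. In such bulk tissue, fewer cells of a type and less of a miRNA per cell cannot be told apart.

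oar-miR-148a was the second most abundant of the 1253 listed miRNAs in each of the 6 libraries, behind oar-miR-143. It stood at 94479, 128255 and 61024 RPM in CON replicates 1 to 3 and at 118361, 101897 and 64532 RPM in UN replicates 1 to 3. CON replicate 2 was the highest and CON replicate 3 the lowest, so the UN values lay entirely within the range of the CON group. The mean ± SD of the 3 libraries was 94586 ± 33615 RPM for CON and 94930 ± 27583 RPM for UN. These levels rest on 1746186 to 2383525 reads of oar-miR-148a per library.

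**Figure D1:**
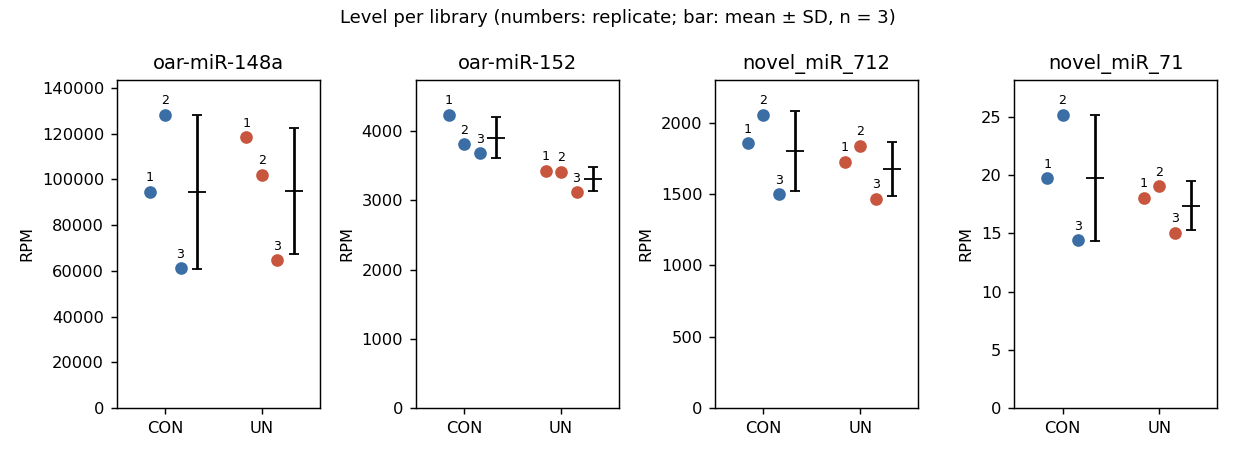
Level of oar-miR-148a, oar-miR-152, novel_miR_712 and novel_miR_71 in each library, in RPM on linear axes from 0, for CON (blue) and UN (red), with the replicate number above each point and the mean ± SD (n = 3) as a black bar. The 3 UN points of oar-miR-152 sit between 3117 and 3423 RPM, below the 3 CON points at 3681 to 4238 RPM, while the groups of the other 3 miRNAs overlap. UN lies wholly below CON for 12.3% of the miRNAs tested, and with the TMM rescaling described below the groups of oar-miR-152 overlap.

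Compared with the CON group, oar-miR-148a in the UN group had a log2 fold change of 0.02 ± 0.26 (± standard error throughout, on log2(RPM + 1)), with an adjusted p of 1.00 in limma. This is a fold of 1.02 with a 95% interval of 0.689 to 1.502, so changes within that interval could not be told from none. The direction depended on single libraries. Leaving out CON replicate 3 gave -0.26, and leaving out UN replicate 1 or 2 gave -0.16 or -0.05. Leaving out CON replicate 2 or UN replicate 3 gave 0.28 in either case. None of these passed an adjusted p of 0.05 (0.59 to 1.00 over all alternatives).

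oar-miR-152 was the 32nd most abundant miRNA by mean level and lay between rank 29 and rank 34 in the 6 libraries. It stood at 4238, 3810 and 3681 RPM in CON replicates 1 to 3 and at 3423, 3410 and 3117 RPM in UN replicates 1 to 3. Each UN library lay below each CON library. The mean ± SD of the 3 libraries was 3910 ± 291 RPM for CON and 3317 ± 173 RPM for UN, from 64109 to 130897 reads per library. The log2 fold change was -0.24 ± 0.18, with an adjusted p of 0.85 in limma, a fold of 0.849 with a 95% interval of 0.650 to 1.11, and it did not pass the test. Groups that did not overlap in this direction were found for 70 of the 567 miRNAs tested (12.3%), against 6 (1.06%) in the other direction. With RPM rescaled by TMM, which sets the bulk of miRNAs equal between libraries, the groups of oar-miR-152 overlapped, at 4166, 3033 and 4197 in CON and 3297, 3550 and 3485 in UN. On that scale UN lay wholly below CON for 45 of the 567 (7.94%). CON replicate 2, the highest CON library for oar-miR-148a, then became the lowest of all 6 for oar-miR-152.

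An epithelial miRNA lay lower in the same libraries as oar-miR-152. oar-miR-200b stood at 6937, 7397 and 6477 RPM in CON and 5523, 4358 and 4910 RPM in UN, and its groups did not overlap with TMM-scaled RPM either. limma gave oar-miR-200b a log2 fold change of -0.50 ± 0.18 and an adjusted p of 0.84, and its unadjusted p was under 0.05. The groups of oar-miR-200a and oar-miR-200c overlapped, so that 1 of 3 epithelial miRNAs was separated. Over all miRNAs tested, UN lay wholly below CON for 12.3% with RPM and 7.94% with TMM-scaled RPM. The sum of the 3 ran from 14495 to 18317 RPM in CON and from 11663 to 14196 RPM in UN, and no such share was computed for sums. The groups of the 4 other tissue miRNAs overlapped. The part of epithelial cell share in the level of oar-miR-152 was not tested.

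The median log2 fold change of all 567 miRNAs tested was -0.12, and 73.5% of them lay below 0. TMM scaling moved the median to -0.03. Relative to the median of the same fit, oar-miR-152 stood at -0.11 with RPM and -0.09 with TMM-scaled RPM, and oar-miR-148a at 0.15 and 0.17. The fold change of oar-miR-152 was higher than that of 30.2% of the miRNAs tested and that of oar-miR-148a higher than that of 79.0%. At an adjusted p under 0.05 limma called 0 of the 2 members and 0 of the 567 miRNAs tested (0%). At an unadjusted p under 0.05 it called 0 members and 29 of 567 (5.11%). At the study's thresholds, P under 0.05 with a fold over 1.5 or under 0.67, limma called 0 members and 10 of 567 (1.76%), 2 higher and 8 lower in UN, against 3 higher and 4 lower with TMM-scaled RPM. On the recovered reads edgeR called 1 miRNA and DESeq2 called 2 at an adjusted p under 0.05, and neither member was among them.

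**Figure D2:**
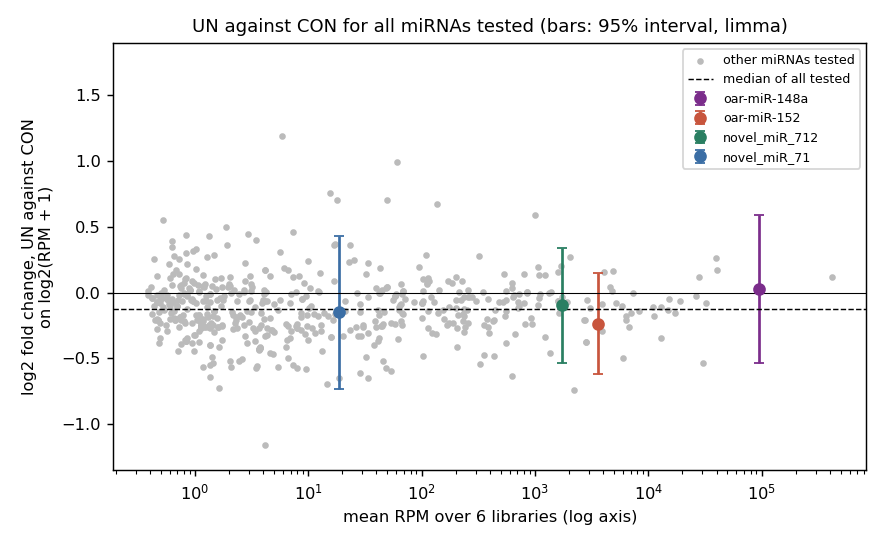
Log2 fold change of UN against CON on log2(RPM + 1), plotted against the mean RPM on a log axis, for the 567 miRNAs tested (grey), with oar-miR-148a, oar-miR-152, novel_miR_712 and novel_miR_71 in colour and their 95% intervals from limma as bars. All 4 intervals include 0, and the dashed line is the median of all tested miRNAs at -0.12.

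The other entries with the seed differed widely in level. novel_miR_712 reached 1854, 2054 and 1497 RPM in CON and 1724, 1835 and 1468 RPM in UN, and the groups overlapped. For novel_miR_712 limma gave a log2 fold change of -0.10 ± 0.20 and an adjusted p of 0.98, and the value turned to 0.01 with TMM-scaled RPM. novel_miR_71, the entry with the strongest computed pairing to oar-miR-152 and to novel_miR_712, was far rarer. It stood at 19.7, 25.2 and 14.4 RPM in CON and 18.04, 19.04 and 15.04 RPM in UN. limma gave it a log2 fold change of -0.15 ± 0.27 and an adjusted p of 0.96. The UN values of novel_miR_71 lay within the CON range, as those of oar-miR-148a did. Reads of oar-miR-152 outnumbered those of novel_miR_71 by 151-fold to 256-fold in the CON libraries and 179-fold to 207-fold in the UN libraries.

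novel_miR_47, with the sequence of oar-miR-148a, was listed with 14, 12 and 14 reads in the CON libraries and 3, 6 and 9 reads in the UN libraries, where oar-miR-148a had 1746186 to 2383525. Reads of this sequence were thus not counted in full under both names. Pooled over the libraries of a group, novel_miR_47 stood at 0.508 RPM in CON (40 reads, exact 95% Poisson interval 0.363 to 0.692) and at 0.272 RPM in UN (18 reads, 0.161 to 0.429). The intervals overlapped, which is not a test of the difference, and they leave out the spread between fetuses. Each UN library lay below each CON library, as for 121 of all 1253 entries (9.66%) with RPM. With TMM-scaled RPM novel_miR_47 ran from 0.449 to 0.560 in CON and from 0.154 to 0.372 in UN, again without overlap. The share over all 1253 entries was not computed on that scale. The filter on low reads removed novel_miR_47. Without the filter limma gave it a log2 fold change of -0.28 ± 0.14 on log2(RPM + 1), a scale that understates changes at such low levels, and an adjusted p of 0.83. On the recovered reads without the filter the log2 fold change of novel_miR_47 was -0.84 with edgeR (adjusted p of 0.90) and -0.79 with DESeq2 (adjusted p of 1.00).

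oar-miR-148a supplied most of the reads with the family seed. Its share of the summed RPM of the 4 entries was 93.9%, 95.6% and 92.2% in CON and 95.8%, 95.1% and 93.4% in UN. oar-miR-152 held 2.77% to 5.56% of the sum and novel_miR_712 1.40% to 2.26%. The sum itself took 10.1%, 13.4% and 6.62% of the assigned reads in CON and 12.4%, 10.7% and 6.91% in UN, so that the libraries with the highest and the lowest sum were both CON libraries. The mean ± SD of the sum over 3 libraries was 10.03% ± 3.396 for CON and 9.99% ± 2.79 for UN.

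A ratio of members within a library does not depend on the library's total. oar-miR-148a exceeded oar-miR-152 by 22.3-fold, 33.7-fold and 16.6-fold in CON and by 34.6-fold, 29.9-fold and 20.7-fold in UN. The log2 ratio was 0.26 higher in UN on average, at 4.53 ± 0.51 in CON and 4.79 ± 0.38 in UN (SD, n = 3 each), and the groups overlapped (p = 0.6, exact two-sided permutation test, where 3 against 3 cannot give less than 0.1). Adjusted over the 2 ratios tested by this exact permutation test, p was 1. Without CON replicate 3 the difference was 0.02, and without CON replicate 2 it was 0.53. oar-miR-152 exceeded novel_miR_712 by 1.86-fold to 2.46-fold in CON and by 1.86-fold to 2.12-fold in UN, so the order of these less abundant entries was kept in each library.

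In the order of mean levels, the neighbours of oar-miR-148a were oar-miR-143 above it and oar-let-7i below it. oar-miR-143 exceeded oar-miR-148a by 2.30-fold to 8.20-fold and oar-miR-148a exceeded oar-let-7i by 1.59-fold to 2.92-fold, in 6 of 6 libraries each. The neighbours of oar-miR-152 were not separated from it beyond their spread. novel_miR_65 lay above it in 4 of 6 libraries, by ratios of 0.747 to 1.58, and oar-miR-30c lay below it in 5 of 6, by ratios of oar-miR-152 to oar-miR-30c of 0.982 to 1.40.

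The members also differed in how much they varied between libraries, with CON and UN pooled. This spread cannot be assigned to the fetuses, since each fetus gave a single library. Over the 6 libraries the SD of log2(RPM + 1) was 0.45 for oar-miR-148a and 0.15 for oar-miR-152, with highest values 2.10-fold and 1.36-fold the lowest. Of the 248 miRNAs tested with a mean of at least 10 RPM, 211 varied less than oar-miR-148a and 19 varied less than oar-miR-152. Among the 50 most abundant, 46 varied less than oar-miR-148a. The SD of novel_miR_712 was 0.19, above that of oar-miR-152. These ranks hold for RPM and were not computed with TMM-scaled RPM. On the TMM scale oar-miR-148a ran from 69564 to 114005, oar-miR-152 from 3033 to 4197 and novel_miR_712 from 1635 to 1910. The levels of oar-miR-148a followed the exact reverse of the order of the libraries by assigned reads, from CON replicate 2, with the fewest reads and the highest level, through UN replicates 1 and 2, CON replicate 1 and UN replicate 3 to CON replicate 3. This order was found in 14 of the 567 miRNAs tested (2.47%), and its opposite in 0. After TMM scaling oar-miR-148a was highest in UN replicate 1 and no longer had this order. The part of read number in the level of oar-miR-148a was not tested.

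**Figure D3:**
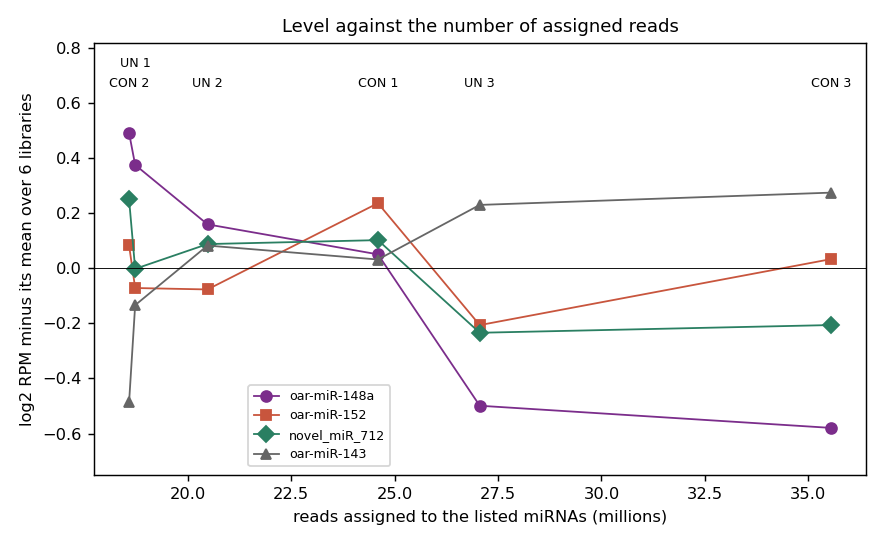
Log2 RPM minus its mean over the 6 libraries for oar-miR-148a, oar-miR-152, novel_miR_712 and oar-miR-143, against the number of reads assigned to listed miRNAs, with each library named at the top. oar-miR-148a is lower in each next library from 18584326 to 35555822 reads, while oar-miR-143 is lowest in the first library and highest in the last.

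Since RPM are shares, a higher share of 1 abundant miRNA leaves less for all others together, though not for each of them. The share of oar-miR-143 was 42.3%, 29.5% and 50.03% in CON and 37.7%, 43.8% and 48.5% in UN. The libraries richest in oar-miR-143, CON replicate 3 and UN replicate 3, were also those poorest in oar-miR-148a. The part of oar-miR-143 in the level of oar-miR-148a was not tested. Of the reads other than oar-miR-143, oar-miR-148a held 16.4%, 18.2% and 12.2% in CON and 19.0%, 18.1% and 12.5% in UN. Replicate 3 was the lowest in both groups. The ratio of oar-miR-148a to oar-miR-143 was 0.224, 0.435 and 0.122 in CON and 0.314, 0.233 and 0.133 in UN. Its log2 value was lower by 0.10 in UN (-2.13 ± 0.92 in CON, -2.23 ± 0.63 in UN, SD, n = 3 each; p = 1 before and after adjustment, exact two-sided permutation test).

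The miRNAs most like oar-miR-148a were those whose log2 ratio to it varied least over the 6 libraries, among 247 others with a mean of at least 10 RPM. The SD of this log2 ratio was 0.13 for oar-miR-3959-3p, 0.14 for oar-miR-376c-3p, 0.17 for oar-miR-379-3p, 0.17 for oar-miR-369-5p and 0.17 for novel_miR_25, where the median over the 247 was 0.38. oar-miR-148a was 1254-fold to 1576-fold more abundant than oar-miR-3959-3p in every library. oar-miR-376c-3p stood at 65.5, 77.8 and 39.8 RPM in CON and 69.1, 60.1 and 47.9 RPM in UN, lowest in CON replicate 3 and UN replicate 3 like oar-miR-148a. Of the entries with the family seed, novel_miR_712 ranked 70 of 247 with an SD of 0.29, below the median. oar-miR-152 ranked 163 with an SD of 0.43, above the median. novel_miR_71 ranked 38 with an SD of 0.24. oar-miR-143 was among the least like oar-miR-148a, at 0.71. The points share their libraries and their totals, and the choice of the 5 is a description.

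The miR-29 family, with another seed, is likewise known in human cells for repressing DNA methyltransferases. Both listed entries with the seed of oar-miR-29a were measured, and 0 of 2 passed an adjusted p of 0.05 or an unadjusted p of 0.05 in limma. oar-miR-29a stood at 46.4, 69.1 and 21.1 RPM in CON and 43.6, 38.5 and 40.3 RPM in UN, so that the UN values lay within the CON range. oar-miR-29b ranged from 1.07 to 3.07 RPM in CON and from 1.56 to 1.74 RPM in UN. Both were therefore far less abundant in these libraries than oar-miR-148a and oar-miR-152.

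**Figure D4:**
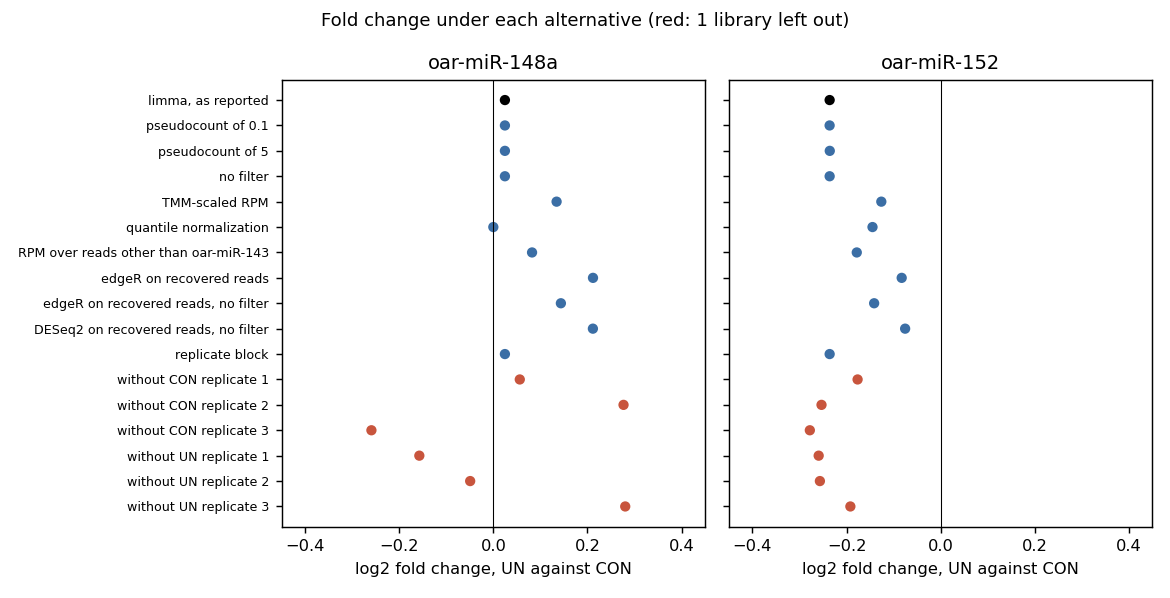
Log2 fold change of UN against CON for oar-miR-148a (left) and oar-miR-152 (right) under limma as reported (black), under other scalings, filters, tools and the replicate block (blue) and with 1 library left out (red). Values of oar-miR-148a lie on both sides of 0, from -0.26 to 0.28, while those of oar-miR-152 run from -0.28 to -0.08.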

How the data were processed

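The authors sequenced small RNA, mapped the cleaned reads with Bowtie2 to a sheep reference and listed annotated miRNAs together with their own predictions. The prediction program, like the version of Bowtie2, is not given in the sources used here. The labels name another library kit than the study's methods. The deposited values are the authors' RPM (headed TPM, but summing to 1000000 per library and not divided by length). Every value above 0 (100%) came out as a whole number of reads within 0.001, and these reads were recovered.

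UN was compared with CON on log2(RPM + 1) by limma 3.58.1 (trend, R 4.3.3) over all 6 libraries without covariates, for the 567 miRNAs kept by edgeR's filterByExpr on the recovered reads (minimum count 10, minimum total 15), with Benjamini-Hochberg adjustment. The study used DESeq2. Alternatives were other pseudocounts, no filter, TMM and quantile scaling, RPM computed without oar-miR-143, edgeR 4.0.16 and DESeq2 1.42.0 on the recovered reads, a replicate block, and leaving out 1 library. Ratios were tested by exact permutation (scipy 1.17.1), and pairing energies came from RNAduplex 2.7.2. The limma fit was also run on simulated reads, and the outcome is not reported here. Duplicate libraries were looked for and none found (chi-square of at least 516 per degree of freedom within a group).

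The text names the members, entries with their seed or its letters elsewhere, the strongest pairing entries, neighbours in the order of levels, the 5 entries most like oar-miR-148a, tissue miRNAs and the miR-29 seed. Members, lists, tests and alternatives were chosen with earlier results of these data known.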

Additional observations from a re-analysis of the deposited data

How the results depend on the processing

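oar-miR-152 kept a negative log2 fold change in all 16 alternatives, from -0.28 to -0.08, with an adjusted p of 0.55 to 1.00, and from -0.28 to -0.18 with 1 library left out. In limma as reported 73.5% of the miRNAs tested lay below 0, and how many kept their sign was not counted. Relative to the median of the same fit, oar-miR-152 ran from -0.24 to -0.04. The alternatives share their libraries. In limma, leaving out the filter and adding the replicate block cannot change a log2 fold change, by construction. oar-miR-148a had 0.02 as reported and lay between -0.26 and 0.28 with 1 library left out. Quantile normalization set it to 0 by construction, since it ranked second in each library, and the other 9 alternatives gave 0.02 to 0.21. novel_miR_712 turned from -0.10 to 0.012 with TMM-scaled RPM, 0.074 with edgeR, 0.014 with edgeR and no filter and 0.080 with DESeq2, and lay between -0.23 and 0.0025 (without CON replicate 2) with 1 library left out. novel_miR_71 turned from -0.15 to 0.012 with edgeR and 0.019 with DESeq2, and lay between -0.35 and 0.035 with 1 library left out. The log2 ratio of oar-miR-148a to oar-miR-152 differed by 0.02 to 0.53 with 1 library left out. That of oar-miR-148a to oar-miR-143 differed by -0.55 to 0.37, with 0.37 without CON replicate 2 and 0.25 without UN replicate 3. Adding entries of 1 sequence together moved neither ratio by 0.01.

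Over all miRNAs, 0 called higher in UN became 1 with TMM-scaled RPM, quantile normalization, RPM computed without oar-miR-143 and edgeR with or without the filter, 2 with DESeq2, and 0 to 2 with 1 library left out (2 without CON replicate 2). The 0 called lower in UN became 0 to 1 (1 without CON replicate 2 and 1 without CON replicate 3). At the study's thresholds the 10 calls of limma became 5 with a pseudocount of 5 or quantile normalization, 25 with a pseudocount of 0.1, 18 with edgeR, 62 with edgeR and no filter, 27 with DESeq2 and 9 to 32 with 1 library left out. The cause was not tested.

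The replicate numbers are shared by the titles only, and deviations of libraries with equal numbers had correlations of -0.07, 0.07 and 0.19, so they did not pair the samples. With the replicate block oar-miR-148a had 0.02 (adjusted p = 1.00 from limma) and oar-miR-152 -0.24 (adjusted p = 0.84), and 0 miRNAs were called. Blocked differences of the ratios were 0.26 and -0.10, by an exact sign flip test of the pairs (p = 0.5 and 1). CON replicate 3 correlated best with its own number, CON replicates 1 and 2 with others. With 1 library per fetus, the spread between fetuses and that between libraries cannot be told apart.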

Other observations

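Of the 8 entries that hold the seed letters of oar-miR-148a at another position, 7 passed the filter on low reads, and none of these passed an adjusted p of 0.05 in limma or an unadjusted p of 0.05. novel_miR_412, shifted from the family seed by 1 base, stood at 140, 158 and 127 RPM in CON and 172, 143 and 118 RPM in UN, with overlapping groups. oar-miR-17-5p, known for driving proliferation, stood at 225, 249 and 228 RPM in CON and 174, 162 and 190 RPM in UN, with each UN library below each CON library (log2 fold change -0.42 ± 0.21, adjusted p of 0.84 in limma), as for 12.3% of the miRNAs tested. With TMM-scaled RPM its groups overlapped, at 199 to 260 in CON and 167 to 213 in UN. oar-miR-106a, at 8.33, 8.07 and 7.14 RPM in CON and 6.09, 4.83 and 7.10 RPM in UN, also did not overlap in this direction. Its groups overlapped with TMM-scaled RPM too. The groups of the other entries with these letters overlapped with RPM.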
